A study of Mus musculus with 6 samples.

Results

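The genes described here are 39 developmental regulators that carry no homeobox and are known in embryonic stem cells as targets of Polycomb repression: 6 forkhead factors, 8 T-box factors, 12 basic helix-loop-helix (bHLH) factors, 4 other transcription factors (Sox9, Zic1, Zic4 and Wt1) and 9 secreted ligands of the Wnt, BMP, Hedgehog and FGF families. They were chosen by name, and their Ensembl identifiers matched 39 of the 22933 genes in the deposited table. Total RNA of mouse embryonic stem cells (mESC) was sequenced after depletion of ribosomal RNA. All cells carried 2 floxed Ezh2 alleles (Ezh2 fl/fl) and grew with serum, knockout serum replacement and leukaemia inhibitory factor. The first group (n = 3 libraries) was given no tamoxifen and is labelled Ezh2 wild type. The second (n = 3) had 4-hydroxytamoxifen at 800 nM for 96 h to generate cells with deleted Ezh2, and its RNA was taken 4 days after treatment. The labels name neither the Cre that responds to the drug nor the deleted exons, and they do not say whether the replicates were separate cultures or clones, so p-values measure the spread between these libraries only. The untreated cells had no drug, so an effect of the drug and an effect of the deletion cannot be told apart here.

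Ezh2 encodes the methyltransferase subunit of the Polycomb complex PRC2, which methylates lysine 27 of histone H3. In pluripotent cells this mark covers CpG-rich promoters of genes that set the identity of later tissues, and these genes are transcribed at a very low level or not at all. The forkhead, T-box and bHLH families bind DNA and direct the formation of gut, heart, limb, nervous system and blood, while the Wnt, BMP, Hedgehog and FGF ligands carry signals between the cells of the embryo.

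Promoter windows from RefSeq on GRCm38.p6, 250 bases before and 50 bases after a transcription start, were matched by symbol for 26 of the 39 genes, in 28 windows. Their median was 23.5 CpG dinucleotides (quartiles 15.75 and 26.25), against 7 (quartiles 3 and 20) over all 32851 windows of the same table. A GC content above 50% with an observed-to-expected CpG ratio above 0.6 was met by 21 windows, 75%, against 33.3% of all windows. The median GC content was 65.2%, against 52.7%. The windows of Olig3 (4 CpG), Tbx4 (8) and Zic4 (8) were the poorest in CpG. Those of Tbx4 and Zic4 lie at RefSeq starts inside the gene, and no window at the annotated gene start was matched. Tbx4 is annotated from 85886422 on chromosome 11, and its window begins at 85896515. The 250 bases before the start are shown for the 2 genes called after tamoxifen (Foxf2 and Wnt10b) and for Tbx20 as the best counted T-box gene. Also shown are Tbx4, a T-box gene whose internal window is CpG-poor, and Foxd3, a forkhead gene with reads in both groups. They read 5′ to 3′ on the gene's strand, and each CG is in capitals. The stretches lie at chr13:31625566-31625815 (plus strand, 21 CG), chr15:98778151-98778400 (minus strand, 14 CG), chr9:24774304-24774553 (minus strand, 22 CG), chr11:85896515-85896764 (plus strand, 6 CG) and chr4:99656049-99656298 (plus strand, 21 CG) of GRCm38.p6.
Foxf2: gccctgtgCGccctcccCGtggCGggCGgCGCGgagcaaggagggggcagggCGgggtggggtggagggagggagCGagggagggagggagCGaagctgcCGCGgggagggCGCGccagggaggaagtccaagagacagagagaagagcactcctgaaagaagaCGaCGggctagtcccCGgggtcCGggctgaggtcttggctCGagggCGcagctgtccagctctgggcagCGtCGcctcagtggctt
Wnt10b: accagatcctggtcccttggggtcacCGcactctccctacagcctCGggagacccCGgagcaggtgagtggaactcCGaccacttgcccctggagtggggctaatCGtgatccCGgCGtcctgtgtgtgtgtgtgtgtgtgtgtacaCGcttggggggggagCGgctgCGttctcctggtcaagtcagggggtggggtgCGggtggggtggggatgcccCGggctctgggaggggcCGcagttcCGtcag
Tbx20: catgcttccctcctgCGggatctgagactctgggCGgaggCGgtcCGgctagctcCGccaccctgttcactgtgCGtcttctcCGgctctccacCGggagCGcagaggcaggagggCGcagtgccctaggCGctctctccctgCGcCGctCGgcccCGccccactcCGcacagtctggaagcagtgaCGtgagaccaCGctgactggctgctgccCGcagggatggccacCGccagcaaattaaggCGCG
Tbx4: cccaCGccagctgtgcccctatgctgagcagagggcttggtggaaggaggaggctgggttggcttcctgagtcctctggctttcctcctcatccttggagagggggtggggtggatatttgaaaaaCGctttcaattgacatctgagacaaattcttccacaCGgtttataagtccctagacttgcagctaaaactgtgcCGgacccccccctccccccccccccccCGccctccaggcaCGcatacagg
Foxd3: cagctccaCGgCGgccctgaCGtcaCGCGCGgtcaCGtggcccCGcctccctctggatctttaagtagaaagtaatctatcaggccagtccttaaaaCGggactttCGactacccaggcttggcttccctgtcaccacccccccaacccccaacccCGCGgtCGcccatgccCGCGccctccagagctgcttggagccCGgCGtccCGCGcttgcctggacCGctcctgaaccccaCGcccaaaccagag
Letters of 4 motifs were counted on both strands of the whole windows. TATAAA stood in 4 of the 28 windows (14.3%, against 13.6% of all windows), the forkhead word GTAAACA in 1 (3.57% against 3.65%), the T-box word AGGTGTGA in 0 (0.0% against 1.28%) and the bHLH word CAGCTG in 4 (14.3% against 16.3%). No motif contains the letters of another, and a match describes letters only. The windows were thus richer in CpG than the whole table at the median, while the shares of the 4 motifs lay close to it or below it.

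**Figure D1:**
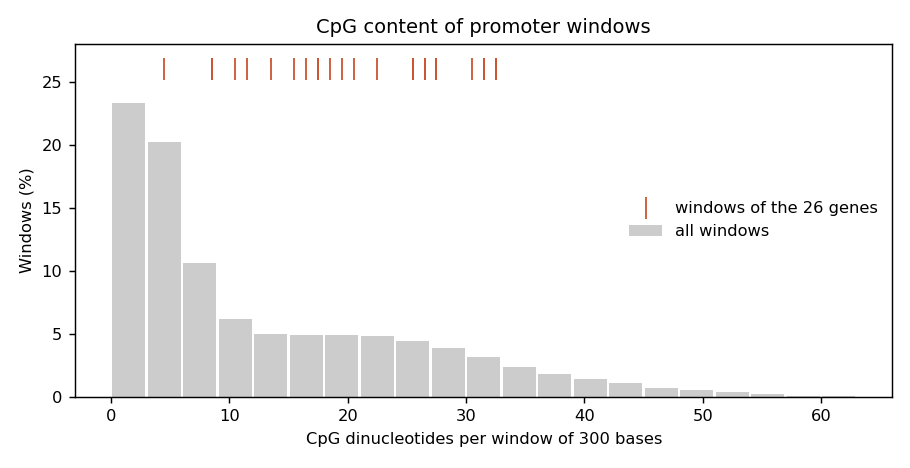
CpG dinucleotides per promoter window of 300 bases (x axis) against the percent of all 32851 windows in bins of 3 (grey bars). Red ticks mark the 28 windows of the 26 matched genes, and windows with the same count share a tick; most ticks lie to the right of the median of all windows, which is 7.

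Ezh2 (ENSMUSG00000029687, chromosome 6, 47530139 to 47595341, minus strand, GRCm38) had deposited normalized values of 4165, 3620 and 3483 in untreated replicates 1 to 3 and 2258, 2559 and 2609 in tamoxifen replicates 1 to 3. The groups did not overlap, yet the transcript remained, at 2475 ± 190 (SD, n = 3) after 3756 ± 361. Limma gave a log2 fold change of -0.60 ± 0.12 (SE), which was not called (adjusted p = 0.195). Limma on recovered reads, scaled between libraries, gave -0.40 (adjusted p = 0.699). Permuting the 6 values exactly gave a two-sided p of 0.1, the lowest value possible with 3 libraries a group. The deleted exons are not given, so this value over the whole gene does not measure the deletion.

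Most of the 39 genes were at the edge of detection. Read numbers were recovered from the deposited values, and the libraries held 2329198 to 5675216 recovered reads. Atoh1 (neural and sensory progenitors), Wnt1 (midbrain) and Fgf8 (gastrulation and limb) had 0 reads in all 6 libraries, 18 others had 1 to 9 reads over all 6, and only 7 reached 10 reads on average. Those 7 were Foxd3, Tbx20, Olig1, Olig2, Tal1, Wt1 and Bmp7. A gene entered the test at a mean deposited value of at least 10, which 29 of the 39 passed; Tbx5, Tbx18, Olig3, Atoh1, Sim1, Sox9, Zic4, Wnt1, Shh and Fgf8 did not. In the deposited values 1 read could be worth anything from 0.885 to 2416 (in untreated replicate 1), so the fold changes of the genes given with full values stand beside those on scaled RPM, the usual reads-per-library unit RPM computed from recovered reads after trimmed-mean scaling of the library totals. Fewer cells making a transcript and less RNA per cell cannot be told apart in such bulk samples.

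Of the 29 tested genes, limma called 2 higher after tamoxifen, Foxf2 and Wnt10b, and 0 lower, at a Benjamini-Hochberg adjusted p under 0.05 over all tested genes. Over all 17427 tested genes, 0.126% were called higher and 0.0689% lower. An unadjusted p under 0.05 was reached by 7 of the 29 (6 higher, 1 lower) and by 9.34% of all tested genes. On recovered reads without scaling limma called 0 of the 29, where 0.155% of all tested genes were called higher and 0.00574% lower, and 22 of the 29 were positive beside 73.4% of all tested genes. On scaled reads it called 0 of the 29, where 0.0516% of all tested genes were called higher and 0.0% lower. At an unadjusted p under 0.05 in that fit, 6 of the 29 were higher and 1 lower, beside 1385 of all 17427 tested genes. The log2 fold change on log2(value + 1) was positive for 22 of the 29 genes and negative for 7, against 49.4% positive among all tested genes. Its median was 1.33 over the 29, beside -0.0037 over all tested genes. Foxf1, Foxf2, Tbx4, Tbx15, Neurog1, Neurod1, Bmp2 and Wnt10b had untreated means under 10 and passed the filter through tamoxifen values only. Their positive signs were thus tied to the filter. Foxl2, Neurog2 and Neurog3 passed through untreated values only, which tied their negative signs to it. Foxf2 and Wnt10b are the 2 calls, and with Tbx4 and Bmp2 they are among the 6 higher genes at an unadjusted p under 0.05 on deposited values. The counts of calls and of unadjusted p thus cannot be read as an excess over the shares of all tested genes. With genes at 0 in a whole group placed at their lower bound, or left out where no bound exists, the median over the remaining 23 was 0.97. On scaled reads it was 0.38, beside -0.02 over all tested genes, and over the 7 best counted genes, at 10 reads or more on average, it was 0.14 on deposited values. The median also rested on single libraries, at 0.23 without tamoxifen replicate 1 and 2.19 without tamoxifen replicate 3. With no filter on low values, 25 of 36 genes were positive on deposited values, with a median of 0.92.

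**Figure D2:**
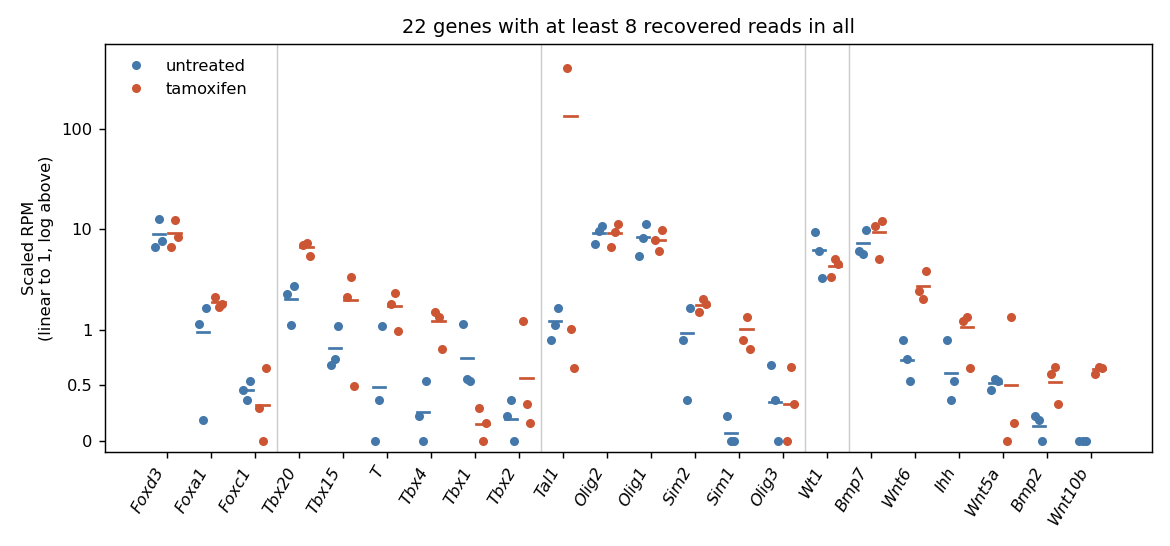
Scaled RPM (y axis, linear up to 1 and logarithmic above) of the 22 genes with at least 8 recovered reads in all, in forkhead, T-box, bHLH, other factor and ligand blocks. Points are libraries (blue untreated, red tamoxifen, 3 each) and short bars are group means. Foxa1, Tbx4, Tbx20, Sim1, Bmp2, Wnt6 and Wnt10b lie higher after tamoxifen without overlap between groups, and Tbx1 lower. For Tal1, 1 tamoxifen point stands at 405.

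Summed over the 32 genes under 10 reads on average, the signal was higher in every tamoxifen library than in any untreated library. The sums were 8.85, 6.64 and 10.3 scaled RPM in untreated replicates 1 to 3 and 18.6, 21.0 and 14.8 in tamoxifen replicates 1 to 3. The means were 8.60 ± 1.84 and 18.2 ± 3.13 (SD, n = 3 each), a ratio of 2.11, and the ratio stayed between 1.96 (without Wnt6) and 2.29 when any 1 gene was left out of the sum. The 32 genes had 94 untreated and 215 tamoxifen reads in all. Without the scaling between libraries the sums were 10.1, 6.34 and 7.12 RPM in untreated and 16.1, 27.05 and 17.6 in tamoxifen libraries, which did not overlap either. The sum over all 11158 genes under 10 reads on average gave 4233, 4217 and 5040 in untreated and 4876, 4505 and 4658 in tamoxifen libraries, a ratio of 1.04. Within the 32, 17 genes had a higher mean in the tamoxifen libraries, 12 a lower one, and 3 had no read. No test was made of these sums, because the genes were chosen with results of these data known.

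**Figure D3:**
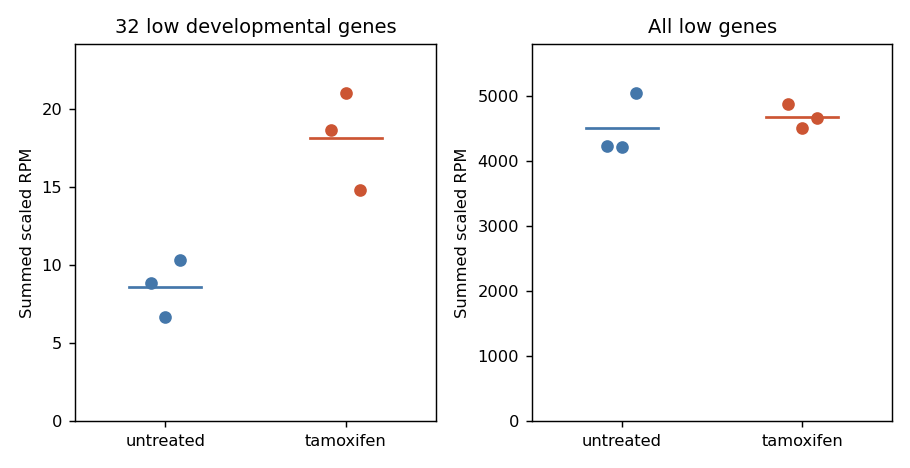
Summed scaled RPM (y axis from 0) of the 32 listed genes under 10 reads on average (left) and of all 11158 genes under 10 reads on average (right). Points are libraries (3 untreated, 3 tamoxifen) and bars are group means: 8.60 and 18.2 on the left, while the right-hand groups overlap.

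Summed markers of primitive endoderm and trophoblast were higher in every tamoxifen library, and their part in the sums above and in each gene below was not tested. For 8 primitive endoderm genes the summed level was 408 to 456 scaled RPM in untreated and 696 to 856 in tamoxifen libraries, with no overlap for 7 of the 8. For 8 trophoblast genes it was 56.3 to 110 and 117 to 153, with no overlap for 4 of 8, and Elf5 had 1 read in 6 libraries. For 8 mesoderm genes it was 13.5 to 16.98 and 28.3 to 31.8, with no overlap for 1 of 8, Pdgfra, and Msgn1 at 0; without Pdgfra the mesoderm sum overlapped, at 3.79 to 4.798 and 2.67 to 5.71. The 7 neural genes in the table summed to 76.4 to 108 and 75.5 to 83.8, with 1 gene lower without overlap. The 8 fibroblast genes summed to 10.4 to 43.2 and 15.03 to 37.7, with 1 gene higher without overlap and Lum at 0. The 8 pluripotency genes, Pou5f1, Nanog and Sox2 among them, summed to 1157 to 1323 in untreated and 1071 to 1184 in tamoxifen libraries. The labelled cell type thus carried its defining transcripts in both groups. Of these 8 genes, 1 lay higher and 1 lower without overlap. Over all tested genes, 7.92% lay higher and 7.33% lower without overlap on deposited values, and 6.77% and 6.33% on scaled reads. Limma on deposited values called 0 of the 42 tested genes of these lists. At an unadjusted p under 0.05 in that fit, 12 were higher and 1 lower, beside 9.34% of all tested genes in either direction. On scaled reads limma called 1, Col4a1 of primitive endoderm, higher.

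Among the forkhead genes, Foxf2 was called higher and Foxd3 overlapped between groups. Foxf2 (ENSMUSG00000038402, chromosome 13, 31625816 to 31631403, plus strand), a regulator of gut and craniofacial mesenchyme, was at 0 in all 3 untreated libraries. Its deposited values were 142, 464 and 223 in tamoxifen replicates 1 to 3, on 1, 2 and 2 reads. Every tamoxifen library had a read and no untreated library did. Its fitted log2 fold change was 7.95 ± 0.86 (SE; limma, adjusted p = 0.0406), a size set by the added 1 and not by the reads. The call was lost when any 1 of the 6 libraries was left out (limma, adjusted p up to 0.218). Against a floor of 3 counts over the untreated group, Foxf2 was at least 1.57-fold higher. With the counting error of its own 5 reads included, the exact 95% interval of the ratio began at 0.863. On scaled reads the log2 fold change was 1.92 (limma, adjusted p = 0.552), without a call. Foxc1, which lies 175 kb from Foxf2 and acts in eye, skull and vessel development, had 2, 2 and 1 untreated reads and 1, 0 and 4 tamoxifen reads.

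Foxd3 (ENSMUSG00000067261, chromosome 4, 99656299 to 99658622, plus strand), a factor of pluripotent cells and neural crest, had deposited values of 2464, 2654 and 2339 in untreated and 2423, 3301 and 2565 in tamoxifen libraries. Its reads were 29, 68 and 14, then 22, 37 and 51, and the groups overlapped. Limma gave a log2 fold change of 0.14 ± 0.14 (95% interval -0.21 to 0.49; adjusted p = 0.770), and 0.038 on scaled reads.

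Foxa1 (ENSMUSG00000035451, chromosome 12, 57540628 to 57546916, minus strand), a pioneer factor of endoderm, had deposited values of 325, 9.7 and 321 in untreated and 481, 468 and 425 in tamoxifen libraries. The reads were 5, 1 and 3, then 7, 5 and 11, and the lowest tamoxifen value lay above the highest untreated value. Its log2 fold change was 2.14 ± 1.33 (limma, adjusted p = 0.680), but 0.50 without untreated replicate 2, the library with 1 read. On scaled reads it was 1.19 (limma, adjusted p = 0.709), and the ratio of scaled reads was 2.41 (exact 95% counting interval 1.07 to 5.91). The interval covers counting error only, not the spread between libraries. Foxf1 had 1 read in tamoxifen replicate 2 and Foxl2, an ovarian factor, 1 read in untreated replicate 2. In all, 4 of the 6 tested forkhead genes had a positive fold change, with a median of 1.14, or 0.21 on scaled reads.

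The T-box genes as a group stood higher in all tamoxifen libraries. Their summed level was 4.54, 3.51 and 6.50 scaled RPM in untreated and 14.1, 15.4 and 8.41 in tamoxifen libraries, from 51 and 144 reads. None of the 6 tested T-box genes was called, 5 had a positive fold change, and the median was 1.24 on both scales. Without Tbx20 the sums were 2.27, 2.40 and 3.79, then 7.22, 8.01 and 2.97, and tamoxifen replicate 3 lay among the untreated libraries.

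Tbx20 (ENSMUSG00000031965, chromosome 9, 24718138 to 24774303, minus strand), a factor of heart muscle and endocardium, gave the largest part of that sum. Its deposited values were 39.5, 29.7 and 58.2 in untreated and 127, 137 and 108 in tamoxifen libraries. The reads were 10, 6 and 5, then 23, 22 and 33, so the lowest tamoxifen library was far above the highest untreated one on the deposited scale. The means were 42.5 ± 14.5 and 124 ± 14.7 (SD, n = 3 each). A log2 fold change of 1.57 ± 0.44 (95% interval 0.50 to 2.63) was not called by limma (adjusted p = 0.370). On scaled reads it was 1.70 (limma, adjusted p = 0.231), with a ratio of 3.50 (exact 95% counting interval 2.14 to 5.97). Tbx20 was the 1 T-box gene with at least 10 reads on average, and its fold changes on the scales lay within an SE of each other.

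Tbx4 (ENSMUSG00000000094, chromosome 11, 85886422 to 85916097, plus strand), a hindlimb and lung factor, had deposited values of 0.885, 0 and 0.885 in untreated and 29.6, 38.9 and 10.5 in tamoxifen libraries. The reads were 1, 0 and 1, then 5, 4 and 5, with no overlap. On log2(value + 1) the fold change was 3.98 ± 1.26 (limma, adjusted p = 0.440), against 2.15 on scaled reads (limma, adjusted p = 0.521), with a ratio of 6.60 (exact 95% counting interval 1.51 to 59.8). Tbx2, its neighbour 44.5 kb away, had 1, 2 and 0 untreated and 4, 1 and 1 tamoxifen reads, which overlapped.

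Tbx1 (ENSMUSG00000009097, chromosome 16, 18580979 to 18590671, minus strand), the pharyngeal arch factor, was the 1 gene of the 39 whose tamoxifen values all lay below the untreated ones. Its deposited values were 325, 170.5 and 71.7 in untreated and 54.0, 0 and 0.885 in tamoxifen libraries, on 5, 3 and 1 and then 1, 0 and 1 reads. The fold change was -5.09 on the log2 scale ± 1.63 (limma, adjusted p = 0.448), and on scaled reads -1.71 (limma, adjusted p = 0.554). The ratio was 0.209 (exact 95% counting interval 0.022 to 1.01).

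T, or Brachyury, the mesoderm and notochord factor, is given although it fell outside the rule for naming genes, and was chosen after its values were seen. Its reads were 0, 2 and 2 in untreated and 6, 7 and 6 in tamoxifen libraries. The deposited values overlapped, at 0, 131 and 214 and then 288, 327 and 202, and the ratio of scaled reads was 4.48 (exact 95% counting interval 1.49 to 18.1; limma on scaled reads, adjusted p = 0.560). Tbx15 had 3, 4 and 2, then 7, 10 and 3 reads. Tbx5 (forelimb and heart) had 2 untreated and 2 tamoxifen reads in all, and Tbx18 (epicardium) 2 and 3.

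The bHLH genes held the best detected of the 39 genes, which overlapped between groups, beside several with few reads. None of the 9 tested was called, 7 had a positive fold change, and the median was 2.13 on deposited values and 0.21 on scaled reads. Without Tal1, which stood apart in 1 library, their sums were 14.8, 19.2 and 23.8 scaled RPM in untreated and 18.04, 19.7 and 23.9 in tamoxifen libraries, which overlapped. Most of that signal came from Olig1 and Olig2, partners in oligodendrocyte and motor neuron formation, which lie 41.1 kb apart. Without Tal1, Olig1 and Olig2 the sums were 2.27, 1.48 and 1.63 in untreated and 3.61, 4.34 and 2.97 in tamoxifen libraries, with no overlap. Most tamoxifen reads of these sums came from Sim1 (1 untreated and 12 tamoxifen reads) and Sim2 (9 and 22). Olig3 had 5 and 4 reads, Hand2 3 and 3, and each proneural gene at most 2 in a group. The sums were not made without Sim1 and Sim2, so no rise of the remaining bHLH genes as a group can be read from them.

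Olig1 (ENSMUSG00000046160, chromosome 16, 91269772 to 91271933, plus strand) had deposited values of 2181, 2127 and 2907 in untreated and 2551, 2343 and 2799 in tamoxifen libraries. Its log2 fold change was 0.10 ± 0.15 (95% interval -0.27 to 0.48; limma, adjusted p = 0.834) on deposited values and -0.047 on scaled reads. Olig2 (ENSMUSG00000039830, chromosome 16, 91225457 to 91228677, plus strand) had 1475, 1458 and 1657, then 1386, 1805 and 1750. Its log2 fold change was 0.10 ± 0.14 (95% interval -0.24 to 0.44; limma, adjusted p = 0.821) and -0.027 on scaled reads. Both genes overlapped between groups on 89 to 118 reads per group, and the sign of their small difference turned with the scale.

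Sim1 and Sim2, regulators of hypothalamic and midline neurons, had few reads but more of them after tamoxifen. Sim1 was under the filter and not tested. Its reads were 1, 0 and 0 in untreated and 3, 4 and 5 in tamoxifen libraries, a ratio of 11.3 (exact 95% counting interval 1.67 to 483) without overlap. Sim2 (ENSMUSG00000062713, chromosome 16, 94084931 to 94127032, plus strand) had deposited values of 38.9, 0.929 and 48.0 in untreated and 48.7, 106 and 58.8 in tamoxifen libraries, on 4, 2 and 3 and then 5, 6 and 11 reads. Its log2 fold change was 2.13 ± 1.35 (limma, adjusted p = 0.687), but 0.63 without untreated replicate 2. On scaled reads it was 0.98 (limma, adjusted p = 0.732), and the groups overlapped.

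Tal1 (ENSMUSG00000028717, chromosome 4, 115056426 to 115071755, plus strand), the blood and endothelial factor, stood apart in 1 library. Its deposited values were 57.9, 58.4 and 66.9 in untreated libraries and 50270, 38.6 and 19.9 in tamoxifen replicates 1 to 3. The reads were 4, 6 and 3, then 1347, 3 and 4. Tamoxifen replicate 1 thus held nearly all Tal1 reads of the series, 0.0351% of that library. The genes on either side were not raised there, with 67 reads of Stil beside 38 to 100 in the other libraries and 1 read of Pdzk1ip1 beside 0 to 2. Genes with at least 200 reads and more than 30 times the other libraries numbered 1 to 6 in each of the 6 libraries. Over all libraries the log2 fold change was 2.49 ± 2.89 (limma, adjusted p = 0.781), or 2.41 on scaled reads, and without that library -1.10 (limma, adjusted p = 0.729). No direction can be read for Tal1.

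The proneural genes were almost silent in both groups. Neurog1 and Neurod1 had 1 read each in tamoxifen replicate 1, Neurog3 had 1 read in untreated replicate 1, and Neurog2 had 1 read in each of untreated replicates 1 and 2. Neurod1 shares 201 exon bases with Cerkl on the same strand and Neurog3 273 with Fam241b on the opposite strand, and how reads of overlapping genes were assigned is not stated. Olig3 had 3, 2 and 0, then 0, 2 and 2 reads, and Hand2 (heart and limb) 0, 3 and 0, then 2, 1 and 0. These genes gave no basis for a comparison at this depth.

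Of the 4 other factors, Wt1 alone had reads to compare. Wt1 (ENSMUSG00000016458, chromosome 2, 105126529 to 105173616, plus strand), a factor of kidney, gonad and mesothelium, had deposited values of 195, 137 and 77.5 in untreated and 58.8, 107 and 97.9 in tamoxifen libraries. The reads were 41, 33 and 6, then 11, 15 and 27, and the groups overlapped. Its log2 fold change was -0.58 ± 0.48 (limma, adjusted p = 0.766) and -0.45 on scaled reads. The ratio of scaled reads was 0.624 (exact 95% counting interval 0.433 to 0.894), beside a limma 95% interval of -1.75 to 0.60 for the log2 fold change between libraries. Sox9 (cartilage and gonad) had 1 read in 1 library of each group. Zic1, a cerebellar factor, had 1 untreated and 2 tamoxifen reads, and Zic4, which overlaps it on the opposite strand by 60 exon bases, had 1 untreated read.

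Among the ligands, Wnt10b was called higher, Wnt6 and Bmp2 did not overlap between groups without being called, and Bmp7 overlapped. Wnt10b (ENSMUSG00000022996, chromosome 15, 98770712 to 98778150, minus strand), a Wnt of skin, bone and fat development, was at 0 in all 3 untreated libraries. Its deposited values were 177, 223 and 229 in tamoxifen replicates 1 to 3, on 2, 2 and 4 reads. The 3 tamoxifen values lay close together, at 210 ± 28.5 (SD, n = 3). Its fitted log2 fold change was 7.71 ± 0.80 (SE; limma, adjusted p = 0.0349), again a size set by the added 1. This call held without any 1 untreated library and was lost without any 1 tamoxifen library (limma, adjusted p up to 0.231). Wnt10b was at least 2.51-fold higher against a floor of 3 counts over the untreated group, and the exact 95% counting interval of the ratio began at 1.61. On scaled reads the log2 fold change was 2.45 (limma, adjusted p = 0.342). Wnt1, its neighbour 11.7 kb away, had 0 reads throughout.

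Wnt6 (ENSMUSG00000033227, chromosome 1, 74771892 to 74785322, plus strand), an epithelial and extraembryonic Wnt, had deposited values of 76.9, 48.4 and 9.7 in untreated and 193, 173 and 272 in tamoxifen libraries. The reads were 4, 4 and 1, then 8, 6 and 23, and the groups did not overlap. The means were 45.0 ± 33.7 and 213 ± 52.4 (SD, n = 3 each). Its log2 fold change was 2.60 ± 0.79 (limma, adjusted p = 0.417), and on scaled reads 1.65 (limma, adjusted p = 0.350), with a ratio of 3.87 (exact 95% counting interval 1.84 to 9.13). Ihh, a Hedgehog ligand of endoderm and cartilage 160 kb away, had 4, 2 and 1, then 4, 4 and 4 reads.

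Bmp2 (ENSMUSG00000027358, chromosome 2, 133552159 to 133562885, plus strand), a ligand of heart and bone formation, had deposited values of 0.885, 0.885 and 0 in untreated and 28.7, 47.3 and 19.5 in tamoxifen libraries. These stood on 1, 1 and 0 and then 2, 2 and 2 reads. The log2 fold change of 4.34 ± 1.16 (limma, adjusted p = 0.342) stood on 6 reads against 2, and on scaled reads it was 1.11 (limma, adjusted p = 0.723). The ratio of scaled reads was 2.83 with an exact 95% counting interval of 0.505 to 28.6, which includes no change.

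Bmp7 (ENSMUSG00000008999, chromosome 2, 172868012 to 172940321, minus strand), a ligand of kidney and eye, was the best detected ligand. Its deposited values were 156, 98.0 and 175 in untreated and 234, 88.0 and 254 in tamoxifen libraries, on 27, 31 and 18 and then 36, 15 and 74 reads. Tamoxifen replicate 2 was below every untreated library and the other two tamoxifen libraries above. The log2 fold change was 0.32 ± 0.51 (limma, adjusted p = 0.846) and 0.31 on scaled reads. Wnt5a, the ligand of the planar polarity pathway, had 2, 3 and 1, then 0, 4 and 1 reads, and Shh, the Hedgehog ligand of midline and limb, 1 read in 1 library of each group. Summed, the ligands stood at 8.62, 7.75 and 11.4 scaled RPM in untreated and 15.6, 11.02 and 17.97 in tamoxifen libraries, which overlapped.

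**Figure D4:**
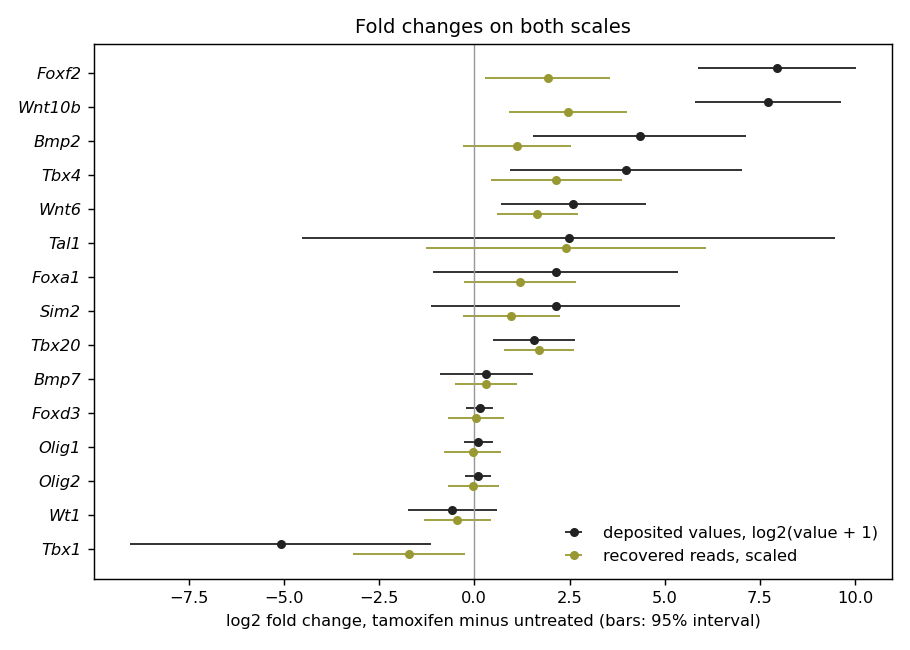
Log2 fold change (x axis, tamoxifen minus untreated) of the 15 tested genes given with full values, on log2 of deposited value + 1 (black) and on scaled recovered reads (olive), with 95% intervals from limma. Foxf2 and Wnt10b lie near 8 on the deposited scale and near 2 on scaled reads, while Tbx20, Bmp7, Foxd3, Olig1, Olig2 and Wt1 lie close together on both.

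Over all 39 genes, deposited values did not overlap between groups for 10: 9 were higher after tamoxifen (Foxa1, Foxf2, Tbx4, Tbx20, Sim1, Sim2, Bmp2, Wnt6 and Wnt10b) and 1 was lower (Tbx1). Sim1 was not tested, which leaves 8 higher and 1 lower of the 29. Foxf2, Tbx4, Bmp2 and Wnt10b, among the 8 and also among those higher on scaled reads, passed the filter through tamoxifen values only. Their direction was thus tied to the filter, and the counts cannot be read as an excess over the shares that follow. Over all tested genes, 7.92% lay without overlap higher and 7.33% lower. Among the 5652 tested genes under 10 reads on average the shares were 4.55% and 3.98%. On the scaled reads, 7 of the 29 lay higher and 1 lower, with 6.77% and 6.33% over all tested genes and 5.70% and 3.89% among those under 10 reads.

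Per kilobase of exon, which allows genes to be set beside each other, Olig2, Olig1 and Foxd3 had the highest levels. The medians over 6 libraries were 3.74 scaled RPM per kb for Olig2 (range 2.61 to 4.43), 3.69 for Olig1 (2.52 to 5.26) and 3.44 for Foxd3 (2.83 to 5.40), and these ranges overlap. Bmp7 followed at 1.98 (1.25 to 3.04), then Wt1 at 0.763 (0.525 to 1.502) and Wnt6 at 0.664 (0.247 to 1.73). Every pair of neighbours in this order, from Olig2 down to the last gene with reads, had overlapping ranges. Tbx20 had a median of 0.340 and Tal1 of 0.241, with Tal1 reaching 92.5 in 1 library. Ezh2 stood at 14.5 on this scale, above every median of the 39 genes.

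**Figure D5:**
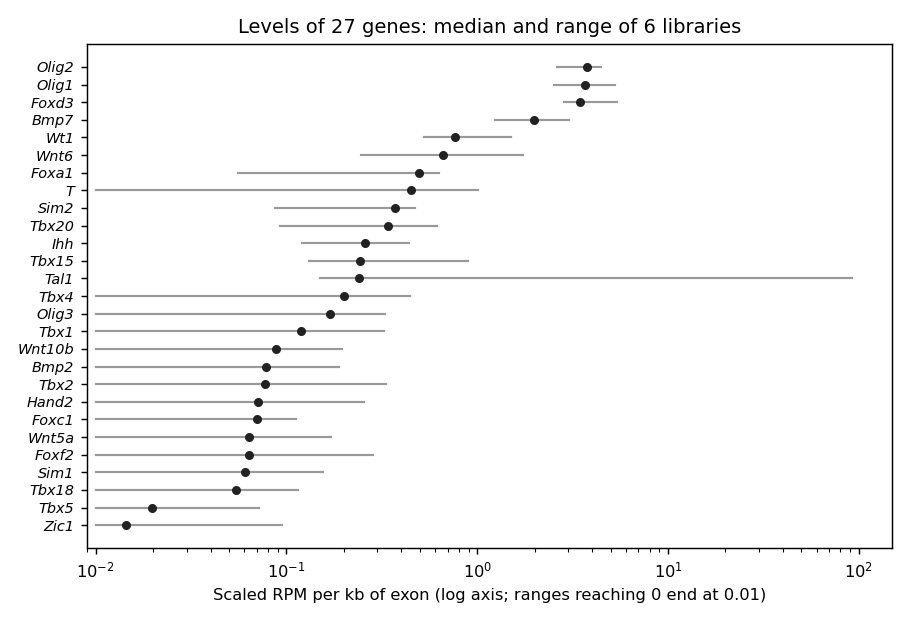
Median (point) and range (line) over the 6 libraries of scaled RPM per kb of exon, on a log axis, for the 27 genes with a median above 0. Ranges that reach 0 end at 0.01; Olig2, Olig1, Foxd3 and Bmp7 are the 4 genes with medians above 1.

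Relatives of these genes were taken from lists of the same families and pathways. Limma called 0 of 34 tested other forkhead genes, with a median log2 fold change of 0.01, 0 of 8 other T-box genes (0.47), 0 of 20 other bHLH genes (0.09) and 0 of 4 other Zic and SoxE genes (-0.25). It called 0 of 11 other Wnt ligands (0.51) and 1 of 24 other BMP, FGF and Hedgehog ligands (0.33), Fgf21, which was lower. It called 0 of 28 receptors of these ligands (0.11), 0 of 10 Hedgehog response genes (-0.22), of which 1 was positive, and 0 of 12 genes of PRC2 and its partners (-0.14). In the same order, 5, 1, 2, 0, 4, 4, 3, 0 and 3 genes of these lists reached an unadjusted p under 0.05 in limma. Of the 151 tested list entries these were 17 higher and 5 lower, beside 9.34% of all tested genes in either direction. The PRC2 list had 1 higher and 2 lower, with Ezh2 among the lower. On scaled reads limma called 0 in any of the lists. The T-box relative of smallest p was Tbx3, a factor of pluripotent cells and limb, at a mean of 2640 ± 565 before and 4843 ± 504 after tamoxifen (SD, n = 3 each; log2 fold change 0.89 ± 0.18; limma, adjusted p = 0.213). Among the ligands, Bmp6 went from 23.5 ± 5.68 to 78.6 ± 9.79, with 1.72 ± 0.50 on the log2 scale (limma, adjusted p = 0.401). Both lay without overlap and neither was called, with 0.76 for Tbx3 and 1.13 for Bmp6 on scaled reads. Foxo3 (0.81, adjusted p = 0.440), Msc (0.31, adjusted p = 0.551), Fgfr4 (0.74, adjusted p = 0.368) and Aebp2 (0.65, adjusted p = 0.407) had positive log2 fold changes in the limma fit. Zic5 (-1.11, adjusted p = 0.584), Wnt5b (-0.38, adjusted p = 0.404) and Ptch1 (-0.59, adjusted p = 0.545) had negative ones. On scaled reads the log2 fold changes of these 7 had the same signs.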

How the data were processed

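Total RNA of 3 untreated and 3 tamoxifen libraries was compared. Per the submitters' processing notes, TopHat2, bedtools and DESeq2 were used with the build mm9; versions, annotation, strand setting and counting rule are not given in the sources used here. The deposited values are a normalized signal per gene made by the authors, and no single factor turns a library into reads. All 100305 values above 0 have the form 9.73 × k × (m + 0.1) / (k + 0.1) with whole k and m (largest relative misfit 5.11e-15), and k was taken as the gene's reads. It was unique for 98.8% of values, and the remaining 1189 took the solution nearest to that gene elsewhere. Foxa1 and T in untreated replicate 3 were among these.

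The main test was limma 3.58.1 (R 4.3.3) with an expression trend on log2(value + 1), over 17427 genes averaging 10 or more, with Benjamini-Hochberg adjustment. Fold changes are on that scale, where the added 1 shrinks changes between low values and sets the size of those against 0. This test was planned when a common factor was assumed. Because the values proved to have another form, limma on recovered reads with trimmed-mean scaling (prior count 0.5), added after seeing the data, stands beside it. The main test and limma on recovered reads without scaling were also run on simulated data, and the scaled fit was not. Ratios of scaled reads are pooled over a group, with exact 95% intervals; these and floors of 3 counts cover counting error only. Symbols and GRCm38 coordinates came from GENCODE vM21 for 20273 genes. Sums, sequences and figures used Python 3.11.15, numpy 2.4.6, pandas 2.3.3, scipy 1.17.1 and matplotlib 3.10.9.

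The genes and lists were chosen with earlier results of these data known. Full values were given for genes called, with at least 10 reads on average, or without overlap on at least 3 reads in all; each list of relatives gave 1 gene, that of smallest p with at least 10 reads on average. Alternatives were other added constants, filters, scalings, recovered reads, a replicate block and each library left out.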

Additional observations from a re-analysis of the deposited data

How the results depend on the processing

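Limma called 34 genes in all and 2 of the 39. With 10 added before log2, or with no filter on low values, 52 genes were called. With a minimum of 10 reads on average 14 were called, and none of the 39 (0) was called. On recovered reads with trimmed-mean scaling it was 9, or 5 with at least 3 reads on average, again with 0 of the 39. Recovered reads without scaling also called 0 of the 39, although the count in all was 28; there the median of all tested genes was 0.25. Leaving out 1 library gave 32 to 56 genes (56 without untreated replicate 2) and 0 to 1 of the 39: Foxf2 lost its call in each case and Wnt10b without any 1 tamoxifen library. A replicate block gave 0 genes and 0 of the 39, with 1393 genes at an unadjusted p under 0.05. Deviations of libraries with the same number were correlated at -0.0009, -0.02 and -0.04 on deposited values. On recovered reads they were correlated at -0.11, -0.009 and 0.14, and libraries with different numbers at -0.27 to 0.24. These values do not settle whether the numbers pair the libraries.

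Of the 29 tested genes 22 had a positive fold change. The count was 6 of 7 with at least 10 reads on average, among them Tal1, Olig1 and Olig2, whose signs turned in other settings. It was 20 of 29 on scaled reads, 10 of 13 on scaled reads with at least 3 reads, and 18 to 22 with 1 library left out. With no filter on low values the count was 25 of 36 and the median 0.92. The median of 1.33 became 0.14 with the minimum of 10 reads, 0.65 on recovered reads, 0.38 on scaled recovered reads, and 0.23 (without tamoxifen replicate 1) to 2.19 (without tamoxifen replicate 3). The sign turned for Olig1 (-0.047) and Olig2 (-0.027) in both scaled read fits, for Tal1 (-1.10 without tamoxifen replicate 1, up to 4.51 without another library) and for Wnt5b on recovered reads (0.051). The cause was not tested. Foxf2 kept its call in 5 of 14 alternatives and Wnt10b in 8 of 14. Ezh2 ranged from -0.65 to -0.13 and was called in none. Depth limits the 32 of the 39 genes under 10 reads on average. Of the other 7, Tal1, Tbx20 and Wt1 also had libraries with 6 reads or fewer.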
